A study of Mus musculus with 2 samples.

Results

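Retinoic acid is made, broken down and read by different cells of the postnatal testis, and 9 genes that carry these steps were followed through single-cell RNA-seq of testes at postnatal day 7 (PD7). The 9 genes were taken by symbol from the 32285 genes of the count tables: Rdh10, Aldh1a1 and Aldh1a2 for synthesis, Dhrs3 for the return of retinal to retinol, Cyp26b1 for breakdown, Crabp1 for binding inside the cell, Rara and Rarg as receptors and Stra8 as a responding gene. The rule names the genes by symbol and uses no value, but the genes were chosen with earlier results of these data known. All 9 were measured. The study asked what the loss of BRCA1 does to undifferentiated spermatogonia, and it sequenced 1 library of testis cells from a control and 1 from a Brca1 vKO mouse. The labels give the first genotype only as control, and the study's methods describe littermates as controls. Brca1 vKO mice carried 1 floxed and 1 null allele of Brca1 together with Vasa-Cre, a transgene that is active in germ cells from fetal life on and removes a block of internal exons from the floxed allele. In other cell types, where the transgene is not known to be active, the floxed allele stays beside the null allele. The strain of the mice is not given in the sources used here. With 1 library per genotype there is no replicate, so no test between genotypes was made, and every interval below is an exact 95% interval that covers counting error only.

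Retinoic acid is made from retinol in a pair of oxidations. RDH10 turns retinol into retinal, DHRS3 reduces retinal back to retinol, and the ALDH1A enzymes turn retinal into retinoic acid, which CYP26 enzymes inactivate. In the postnatal testis Sertoli cells are a known source of the first pulse of retinoic acid, and spermatogonia answer it by switching on Stra8 and Kit as they leave the undifferentiated state.

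The control table held 5812 barcodes and 120568700 UMIs (unique molecular identifiers, each counting 1 captured RNA molecule), and the Brca1 vKO library 9456 barcodes and 165062097 UMIs. After filters on genes and mitochondrial UMIs, 5077 and 8712 cells were kept, and 16 barcodes among them occurred in both libraries. Cells were clustered without the genes followed here, and classes are called "like" because they rest on marker genes. The control library had 651 germ-like cells, 12.8% of its cells (11.9 to 13.8), and the Brca1 vKO library 216, 2.48% (2.16 to 2.83). Sertoli-like cells numbered 2004 and 4092, stromal-like cells 927 and 2167, myoid-like cells 552 and 1418 and Leydig-like cells 47 and 124, in control and Brca1 vKO respectively. All listed markers of each of these 5 classes were detected in it, and those of germ cells, Ddx4 and Dazl among them, made up 2785 and 2473 of each 1000000 UMIs. One of the Sertoli-like clusters was led by genes of dividing cells, and one of the stromal-like clusters held 37.0% and 44.4% of cells marked as doublets, against 8.14% and 12.5% in germ-like cells. Levels below are UMIs of a gene for each 1000000 UMIs of all cells of a class in 1 library (CPM). Brca1 itself was at 72.9 CPM (70.0 to 75.9) in control and 45.4 (41.0 to 50.04) in Brca1 vKO germ-like cells, and at 29.8 and 25.7 in Sertoli-like cells. The reads were captured at the 3′ ends of transcripts, outside the deleted exons, so this difference does not check the label.

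Germ-like cells of at least 10000 UMIs were split by the UMIs of Gfra1 and Ret, receptors of undifferentiated spermatogonia, against Kit, a receptor of differentiating ones. GFRA1/RET cells were 367 of 643 in control (57.1%, 53.1 to 60.9) and 196 of 212 in Brca1 vKO (92.5%, 88.0 to 95.6). KIT cells were 163 in control (25.3%, 22.0 to 28.9) but only 2 in Brca1 vKO (0.943%, 0.114 to 3.37), and 100 and 7 cells were low in both. A comparison of all germ-like cells therefore sets different mixtures side by side, and levels in Brca1 vKO KIT cells rest on 2 cells.

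The promoters of 3 of the genes are shown because the values below turn on them: Stra8 and Crabp1, whose UMIs lay mostly in germ cells, and Aldh1a2, the synthesis gene that differed most between the libraries in Sertoli-like cells. Each sequence is the RefSeq sequence (GRCm38.p6) of the 250 bases before the transcription start, 5′ to 3′ on the gene's strand, which is the plus strand for all 3. Capitals mark AGGTCA, the consensus half-site bound by retinoic acid receptors.
Stra8, chr6:34920698-34920947: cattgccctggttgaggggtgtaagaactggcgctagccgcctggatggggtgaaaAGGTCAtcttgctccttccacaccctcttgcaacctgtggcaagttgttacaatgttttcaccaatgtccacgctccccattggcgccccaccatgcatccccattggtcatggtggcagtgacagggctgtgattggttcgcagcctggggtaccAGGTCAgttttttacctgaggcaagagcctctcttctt
Crabp1, chr9:54764498-54764747: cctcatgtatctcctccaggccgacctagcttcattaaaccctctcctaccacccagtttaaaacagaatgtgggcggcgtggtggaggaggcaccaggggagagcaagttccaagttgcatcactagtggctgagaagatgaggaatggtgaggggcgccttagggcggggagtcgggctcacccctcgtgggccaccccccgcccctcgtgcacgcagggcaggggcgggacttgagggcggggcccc
Aldh1a2, chr9:71215539-71215788: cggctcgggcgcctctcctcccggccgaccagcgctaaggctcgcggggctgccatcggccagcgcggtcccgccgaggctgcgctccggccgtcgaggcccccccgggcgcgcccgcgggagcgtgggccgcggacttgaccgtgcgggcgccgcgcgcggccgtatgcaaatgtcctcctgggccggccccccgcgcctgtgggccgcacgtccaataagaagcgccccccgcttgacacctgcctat

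The Stra8 window held AGGTCA at 2 places on the plus strand, beginning 194 and 38 bases before the start. The windows of Crabp1 and Aldh1a2 held none. The same window before 32851 RefSeq starts held AGGTCA on either strand in 14.0%, and at 2 or more places in 1.36%. For 8 of the 9 genes promoters were found, 15 in all, and 4 of these held a half-site of a wider set on either strand, against 38.6% of all windows. The wider set joined GGGTCA to AGGTCA, and the variant AGTTCA was counted too, as was the variant GGTTCA. None of the 15 held 2 such half-sites as a direct repeat spaced by 1, 2 or 5 bases, as 0.426% of all windows did. The RefSeq start used for Stra8 lies 785 bases downstream of the start of the gene in the GENCODE annotation, so the window is inside the annotated gene. These are matches of letters and were not tested for binding.

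Crabp1 and Stra8 were at least 4 times as high in germ-like cells as in the next class in both libraries, a rule that 14.2% of all genes with at least 50 UMIs met in control, and 11.9% in Brca1 vKO. The others were spread among the 5 classes: Aldh1a1, Rdh10, Dhrs3 and Cyp26b1 were highest in Leydig-like cells in both libraries, Rara in Sertoli-like cells in both, and Aldh1a2 and Rarg had a different highest class in each library. Under other ways of clustering, Aldh1a1 was highest in Sertoli-like cells at a finer resolution in both libraries. With at most 5% mitochondrial UMIs it was highest in Sertoli-like cells in Brca1 vKO, at 956 CPM or 1.002 times the next class. In Brca1 vKO Rdh10 was highest in stromal-like cells without the library correction. Leydig-like cells were few, so the highest level was not the largest share of the RNA. Most UMIs of Aldh1a1 and Rara lay in Sertoli-like cells and most of those of Cyp26b1 in stromal-like cells.

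**Figure D1:**
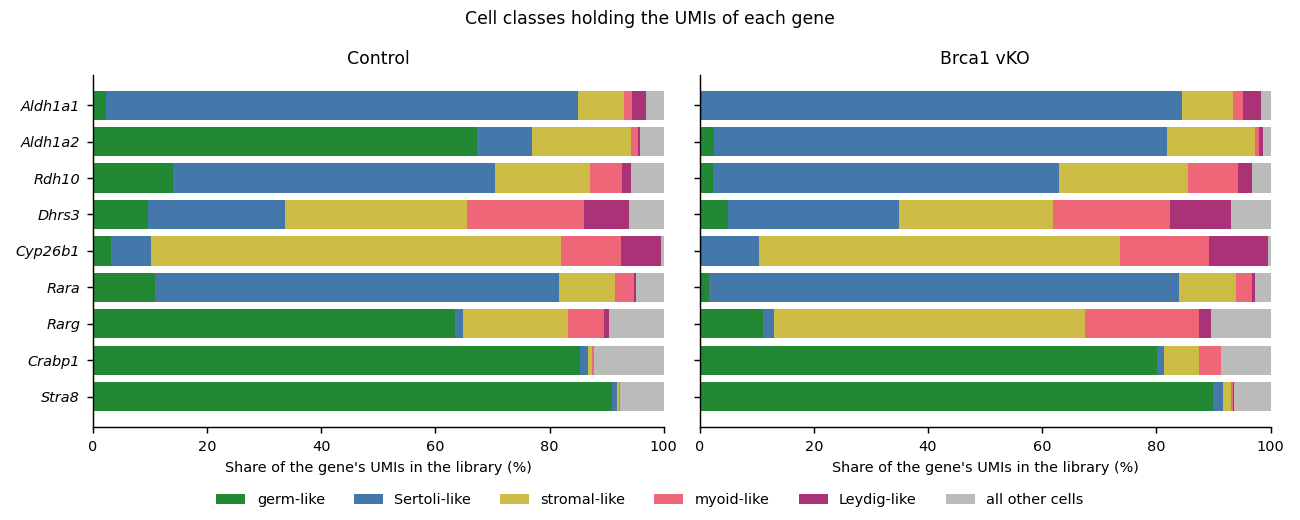
Share of each gene's UMIs (%) held by each cell class, 1 panel per library, with each bar summing to all kept cells. Sertoli-like cells hold 82.5% and 84.1% of Aldh1a1 UMIs in control and Brca1 vKO, stromal-like cells hold 71.9% and 63.2% of Cyp26b1 UMIs, and the Aldh1a2 bar passes from 67.3% germ-like in control to 79.4% Sertoli-like in Brca1 vKO.

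Rdh10, which encodes the enzyme of the first oxidation (ENSMUSG00000025921, chr1:16105774-16133734 of GRCm38, plus strand), was present in all 5 classes. In control it was at 26.4 CPM (17.8 to 37.8) in Leydig-like, 20.6 (19.4 to 21.8) in Sertoli-like, 18.4 (16.4 to 20.5) in stromal-like, 14.3 (11.8 to 17.3) in myoid-like and 8.42 (7.45 to 9.48) in germ-like cells. In Brca1 vKO the same classes were at 25.7, 16.9, 19.98, 16.3 and 7.52. In control the intervals of Leydig-like, Sertoli-like and stromal-like cells overlapped and so did those of stromal-like and myoid-like cells. In Brca1 vKO stromal-like cells (18.5 to 21.6) were above Sertoli-like ones (16.1 to 17.7). Germ-like cells were lowest in both libraries. Within the Sertoli-like cells the 4 clusters of the finer resolution differed, from 7.29 to 26.4 in control and from 5.996 to 21.8 in Brca1 vKO. The ratio of Brca1 vKO to control was 0.820 (0.759 to 0.886) in Sertoli-like cells, and in the other 4 classes its interval included 1. Endothelial-like cells, 27 and 36 in number, were at 49.8 and 28.7 CPM.

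Dhrs3 encodes the reductase that returns retinal to retinol (ENSMUSG00000066026, chr4:144892827-144928209, plus strand). It was highest in Leydig-like cells, at 70.5 CPM (55.9 to 87.8) in control and 68.5 (59.1 to 79.1) in Brca1 vKO. Myoid-like cells followed at 27.4 and 24.0, stromal-like cells at 18.7 and 14.98 and Sertoli-like cells at 4.61 and 5.22. In these 4 classes the libraries lay within 0.801 to 1.13 times each other. Germ-like cells were the lowest class in control, at 3.04 (2.47 to 3.71), and were above Sertoli-like cells in Brca1 vKO, at 10.0 (8.04 to 12.4).

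Aldh1a1 encodes a retinal dehydrogenase (ENSMUSG00000053279, chr19:20492715-20643465, plus strand, with the gene C730002L08Rik of the table on the opposite strand). Its level in Sertoli-like cells was the same in both libraries, 945 CPM (937 to 954) in control and 938 (932 to 944) in Brca1 vKO, and 99.5% of these cells had at least 1 UMI in each. Leydig-like cells were at 1380.4 (1313 to 1450) and 1279 (1237 to 1322), stromal-like cells at 286 and 313 and myoid-like cells at 100.3 and 141. The stromal-like value was 224 and 223 in the larger stromal-like cluster, and 418 and 514 in the one rich in marked doublets. In germ-like cells Aldh1a1 was at 44.8 and 59.0. Free RNA and mixed droplets bring RNA of one class into cells of another, and the Sertoli markers stood in germ-like cells at 4.62% and 5.52% of their level in Sertoli-like cells. The same percentage of the Sertoli-like Aldh1a1 level is 43.6 and 51.8 CPM, so the germ-like values were 1.03 and 1.14 times this background and are not read as expression.

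Aldh1a2 encodes the second retinal dehydrogenase (ENSMUSG00000013584, chr9:71215789-71296243, plus strand). In the control library it belonged to germ-like cells, at 19.1 CPM (17.6 to 20.7), followed by stromal-like cells at 9.15 (7.78 to 10.7), Leydig-like cells at 3.53 (0.961 to 9.03), Sertoli-like cells at 1.66 (1.33 to 2.05) and myoid-like cells at 1.30 (0.625 to 2.40). Within the control germ-like cells it was at 16.1 in GFRA1/RET, 18.6 in low and 24.1 in KIT cells. In the Brca1 vKO library the order was different, with Sertoli-like cells at 18.3 (17.5 to 19.2), stromal-like cells at 11.3 (10.1 to 12.5), germ-like cells at 6.50 (4.92 to 8.42), Leydig-like cells at 5.13 (2.81 to 8.61) and myoid-like cells at 1.14 (0.665 to 1.83). Germ-like cells held 67.3% of all Aldh1a2 UMIs in control and 2.48% in Brca1 vKO, and Sertoli-like cells held 9.64% and 79.4%.

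Cyp26b1, which encodes the enzyme that breaks retinoic acid down (ENSMUSG00000063415, chr6:84571414-84593908, minus strand), was highest in Leydig-like and stromal-like cells, with myoid-like cells next. In control it was at 433 CPM (395 to 473) in Leydig-like, 288 (280 to 297) in stromal-like and 94.8 (88.0 to 102) in myoid-like cells, and in Brca1 vKO at 607 (578 to 636.5), 319 (312 to 325) and 166 (159 to 172). Sertoli-like cells were at 9.19 and 16.0. The Leydig markers, taken as the source with the highest level, would bring 5.96 and 7.19 CPM into Sertoli-like cells, so these values were 1.54 and 2.23 times that background. The median Leydig marker stood in Sertoli-like cells at 0.0777% and 0.130% of its own level, far below the pooled share, and by median markers the source with the highest level was the stromal-like class, at 0.929 and 2.15 CPM. Germ-like cells, at 7.02 and 6.50, were at 0.847 and 0.735 times the level that the pooled markers of the source class would bring, and at 1.21 and 0.691 times that of median markers, and no expression is read from them. The myoid-like level was 0.840 times the stromal share of it in control and 1.253 times in Brca1 vKO, a share that cannot be read as free RNA alone, since the stromal markers themselves stood in myoid-like cells at 39.1% and 41.5% of their stromal-like level.

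Crabp1, which encodes a protein that holds retinoic acid in the cytosol (ENSMUSG00000032291, chr9:54764748-54773110, plus strand), followed the germ line. It was at 173 CPM (168 to 177) in control germ-like cells and 35.7 (31.8 to 39.8) in Brca1 vKO ones. These levels were 66.3 and 35.4 times those of the next class, the myoid-like cells in both. The 4 somatic classes lay between 0 and 2.61 CPM in control and between 0 and 1.01 in Brca1 vKO. Leydig-like cells had no UMI in either library, which allows a level of up to 2.64 and 1.10 CPM (3 counts). Along the control germ line the level was 75.1 (71.1 to 79.2) in GFRA1/RET cells, 151 (139 to 163) in cells low in both and 372 (359 to 385) in KIT cells, 3 values whose intervals do not overlap. All 163 control KIT cells had a Crabp1 UMI, against 82.0% of GFRA1/RET cells, 3.69% of Sertoli-like cells and 3.08% of myoid-like cells, at median depths of 54386, 45956, 18614 and 13543 UMIs. Thinned to 2000 UMIs per cell the first 3 shares were 49.7%, 13.9% and 0.402%, and no thinned myoid-like cell had a UMI.

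The receptors differed in where they were found. Rara (ENSMUSG00000037992, chr11:98927818-98974942, plus strand) was highest in Sertoli-like cells, at 115 CPM (112 to 118) in control and 136 (134 to 139) in Brca1 vKO, and 83.7% and 85.5% of these cells had a UMI. Stromal-like cells were at 49.5 and 52.6, myoid-like cells at 36.6 and 31.5, germ-like cells at 29.2 and 31.0 and Leydig-like cells at 23.8 and 27.9. Rara varied little along the control germ line, with 26.5 (24.1 to 29.0) in GFRA1/RET, 34.6 (29.2 to 40.6) in low and 31.5 (27.9 to 35.4) in KIT cells. The Leydig-like values were 0.810 and 1.15 times the Sertoli share there, and by this share they are not read as expression. By median markers they were 1.22 times the background from Sertoli-like cells in control and 2.08 times that from stromal-like cells in Brca1 vKO.

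Rarg (ENSMUSG00000001288, chr15:102234938-102257517, minus strand), the other receptor, was scarce in Sertoli-like cells, with 11 UMIs in 2004 control and 9 in 4092 Brca1 vKO cells, or 0.208 and 0.0903 CPM. Among the germ-like, Sertoli-like, stromal-like, myoid-like and Leydig-like classes of control, Rarg was highest in germ-like cells, at 14.4 (13.1 to 15.7). Stromal-like cells were at 7.71 (6.46 to 9.13), Leydig-like cells at 6.17 and myoid-like cells at 5.87. In Brca1 vKO the germ-like level was 5.58 (4.13 to 7.38), below the stromal-like level of 7.71 (6.77 to 8.75), with overlapping intervals. Endothelial-like cells, 27 and 36 in number, were at 20.4 (12.1 to 32.2) in control and 11.95 (6.69 to 19.7) in Brca1 vKO. Pericyte-like cells, 47 and 68 in number, were at 15.3 (6.59 to 30.1) and 29.7 (17.9 to 46.4). In control both intervals overlapped that of germ-like cells. In Brca1 vKO the pericyte-like interval lay above the stromal-like one, and the endothelial-like interval overlapped it. The control cells low in both Gfra1/Ret and Kit had the highest Rarg level of the germ-cell subsets, 25.7 (21.2 to 31.0), against 11.2 (9.68 to 12.8) in GFRA1/RET and 14.5 (12.1 to 17.2) in KIT cells.

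Stra8, named for its induction by retinoic acid and needed for meiosis (ENSMUSG00000029848, chr6:34920163-34939344, plus strand), was also a gene of the germ-like cells. It was at 171 CPM (167 to 176) in control germ-like cells and 45.4 (41.0 to 50.04) in Brca1 vKO ones. In control this was 110.1 times the next class. The somatic classes were at 0.881 to 1.55 in control and 0.0803 to 0.367 in Brca1 vKO. Along the control germ line it was at 64.5 (60.8 to 68.3) in GFRA1/RET, 158 (146 to 170) in low and 364 (352 to 377) in KIT cells. KIT cells with a Stra8 UMI were 91.4% in control, against 50.4% of GFRA1/RET cells and 2.30% of Sertoli-like cells. Thinned to 2000 UMIs, these shares were 39.9%, 9.26% and 0.251%.

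Between the libraries, a gene was counted as past 2-fold when its ratio was at least 2 or at most 0.5, and only genes whose sums held 50 UMIs or more, summed over both libraries, were counted. In germ-like cells 5 of the 9 genes were past 2-fold, where 11% of 14930 genes were, and the median log2 ratio was -0.16 for the 9 genes and -0.05 for all. In GFRA1/RET cells it was 4 of 9 against 8.46%, with medians of -0.20 and -0.02. In Sertoli-like cells it was 3 of 8 against 2.1%, with medians of 0.08 and 0.00. In stromal-like cells 1 of 8 was past 2-fold against 1.13%, in myoid-like cells 0 of 6 against 1.52% and in Leydig-like cells 0 of 5 against 4.89%. Since the 9 genes were chosen with earlier results of these data known, no enrichment is read from these counts. The genes past 2-fold were in germ-like cells Crabp1, Stra8, Aldh1a2 and Rarg, all lower in Brca1 vKO, and Dhrs3, which was higher. In GFRA1/RET cells they were these without Stra8.

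**Figure D2:**
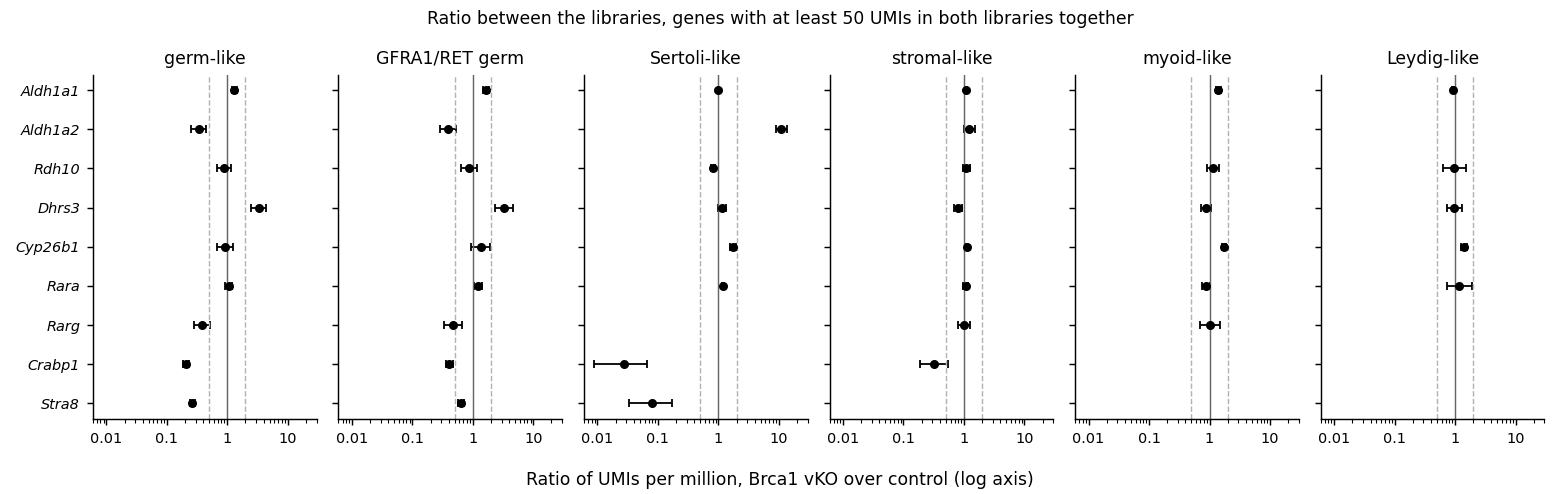
Ratio of CPM, Brca1 vKO over control (log axis), for each gene in 6 cell groups, with exact conditional 95% intervals that cover counting error only and lines at 0.5, 1 and 2. Genes under 50 UMIs in both libraries together are left out. Aldh1a2 is at 11.003 in Sertoli-like and at 0.341 in germ-like cells, Crabp1 is at 0.206 and Dhrs3 at 3.29 in germ-like cells.

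Crabp1 was lower in Brca1 vKO germ-like cells, with a ratio of 0.206 (0.184 to 0.231) that rests on 5563 and 313 UMIs. KIT cells, the subset with the most Crabp1, were 25.3% of the control and 0.943% of the Brca1 vKO germ cells that were split. Within GFRA1/RET cells Crabp1 was at 75.1 (71.1 to 79.2) in control against 30.8 (27.1 to 34.8) in Brca1 vKO, and the ratio was 0.410 (0.357 to 0.470). The share of GFRA1/RET cells with a UMI was 82.0% of 367 in control and 61.2% of 196 in Brca1 vKO, or 13.9% and 6.63% when thinned. The cells low in both were at 151 (139 to 163) and 100.4 (62.9 to 152), the second from 7 cells, of which 1 held 16 of the 22 UMIs. The interval from pooled UMIs does not cover this spread between cells. The direction in GFRA1/RET cells was kept in all 8 alternatives to the processing, with ratios from 0.407 to 0.444.

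Stra8 was lower in Brca1 vKO germ-like cells as a whole, with a ratio of 0.265 (0.239 to 0.293) from 5508 and 398 UMIs. In GFRA1/RET cells the levels were 64.5 (60.8 to 68.3) and 41.6 (37.3 to 46.2), a ratio of 0.645 (0.569 to 0.728) that was not past 2-fold. It was 1.16 in cells thinned to 2000 UMIs, and the shares of thinned cells with a Stra8 UMI were 9.26% and 10.2%. The 7 Brca1 vKO cells low in both were at 59.3 (31.6 to 101.5), against 158 in the 100 control cells, and 1 of the 7 held 10 of their 13 UMIs. The 2 KIT cells of Brca1 vKO together had 5 Stra8 UMIs and 24 Crabp1 UMIs, or 70.7 CPM (23.0 to 165) and 339 CPM (217.5 to 505). Of the 24 Crabp1 UMIs, 17 lay in 1 cell.

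The levels were also read by Kit count, with each germ-like cell thinned to 10000 UMIs. In cells with no Kit UMI, 459 in control and 158 in Brca1 vKO, Crabp1 was at 112 (102 to 122) and 29.1 (21.3 to 38.8) and Stra8 at 107 (97.5 to 117) and 31.6 (23.5 to 41.7). In cells with 1 Kit UMI, 89 and 39, Crabp1 was at 274 (241 to 311) and 41.0 (23.4 to 66.6) and Stra8 at 253 (221 to 288) and 64.1 (41.5 to 94.6). In cells with 2 or 3 Kit UMIs, 73 and 13, Crabp1 was at 374 (331 to 421) and 7.69 (0.195 to 42.9) and Stra8 at 362 (319 to 408) and 200 (131 to 293). Both genes were thus higher in control at every Kit count up to 3, without overlap of the intervals. In control both were higher at 1 Kit UMI than at none, and higher again at 2 or 3. In Brca1 vKO the intervals at no and at 1 Kit UMI overlapped for both genes, and the values at 2 or 3 rest on 13 cells, with 26 Stra8 UMIs and 1 Crabp1 UMI. Kit itself was at 8.62 CPM in control and 32.6 in Brca1 vKO GFRA1/RET cells. Cells of 1 Kit count also came from different subsets in the 2 libraries. In Brca1 vKO only 2 cells were KIT, so most cells with a Kit UMI were GFRA1/RET cells, while control had 163 KIT cells. Whether cells of 1 Kit count were at the same stage in both libraries was not tested.

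**Figure D3:**
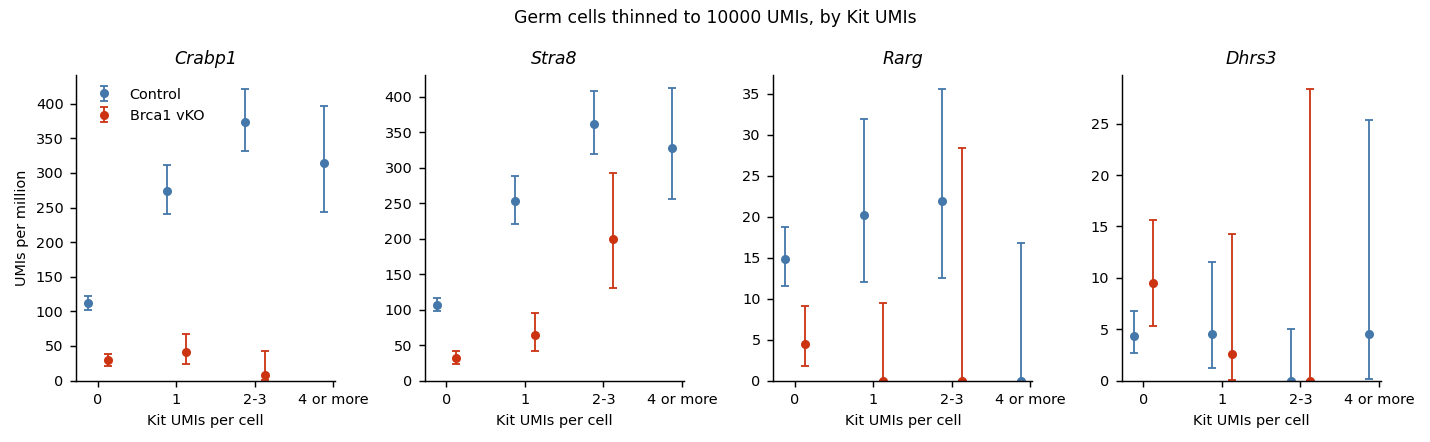
Levels in CPM in germ-like cells thinned to 10000 UMIs and grouped by their number of Kit UMIs, for control and Brca1 vKO, with exact 95% Poisson intervals. Stra8 in control goes from 107 with no Kit UMI to 362 with 2 or 3, and in Brca1 vKO from 31.6 to 200, while the cells with 4 or more Kit UMIs number 22 and 2.

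Dhrs3 was higher in Brca1 vKO germ-like cells, and the ratio was alike in all germ-like and in GFRA1/RET cells. It was at 3.04 and 10.0 in all germ-like cells, a ratio of 3.29 (2.44 to 4.44), and at 3.17 (2.40 to 4.11) and 10.4 (8.33 to 12.9) in GFRA1/RET cells, a ratio of 3.29 (2.32 to 4.68). The second pair rests on 57 and 85 UMIs, and the alternatives gave ratios from 2.27 to 5.30 and from 3.17 to 6.55. At no Kit UMI, with cells thinned to 10000 UMIs, it was at 4.36 (2.66 to 6.73) and 9.49 (5.31 to 15.7), from 20 and 15 UMIs and with overlapping intervals. At 1 Kit UMI it was at 4.49 and 2.56, from 4 and 1 UMIs. The share of GFRA1/RET cells with a Dhrs3 UMI was 12.5% of 367 and 31.1% of 196, or 0.545% and 3.57% when thinned. Leydig-like cells, the class with the highest level, were at 70.5 and 68.5, and Leydig markers stood in germ-like cells at a level that would bring 1.35 and 0.734 CPM of Dhrs3. The germ-like values were 2.25 and 13.7 times that, and 6.14 and 22.7 times the level of median markers.

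Rarg and Aldh1a2 were lower in Brca1 vKO germ-like cells. Rarg had a ratio of 0.389 (0.284 to 0.523) in all germ-like cells and 0.472 (0.331 to 0.659) in GFRA1/RET cells, from 201 and 43 UMIs. The second became 1.12 when cells were thinned to 2000 UMIs, where few UMIs are left, since 1.36% and 1.53% of thinned GFRA1/RET cells had a Rarg UMI. Aldh1a2 had ratios of 0.341 (0.255 to 0.447) and 0.396 (0.289 to 0.533), the second from 290 and 52 UMIs, and it was lower in all 8 alternatives. In cells with no Kit UMI, Rarg was at 14.8 (11.5 to 18.8) and 4.43 (1.78 to 9.13).

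Rara and Rdh10 were close between the libraries in germ-like cells. Rara had a ratio of 1.06 (0.925 to 1.22) in all germ-like and 1.20 (1.03 to 1.40) in GFRA1/RET cells. Rdh10 had ratios of 0.893 (0.672 to 1.17) and 0.869 (0.638 to 1.17). These intervals exclude a 2-fold difference in either direction for counting error, and the spread between mice is unknown.

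A clustering of the germ-like cells alone gave the same directions within its largest group, whose cells had more Gfra1 and Ret than Kit. In that group, 263 control and 118 Brca1 vKO cells with no marked doublet, Stra8 was at 75.2 and 35.8 CPM, Crabp1 at 78.8 and 33.7, Aldh1a2 at 15.4 and 4.33, Rarg at 15.2 and 6.73 and Dhrs3 at 3.14 and 10.8. Its cells also differed in other markers. Sox3, the study's marker of progenitor spermatogonia, was at 33.5 and 9.14, Gfra1 at 273 and 371 and Kit at 9.77 and 34.6. Whether the cells of this group, or the GFRA1/RET cells, were at the same stage in both libraries was not tested. The group with the most Kit in control, 141 and 12 cells, had Stra8 at 421 and 274 and Crabp1 at 385 and 130. The 12 Brca1 vKO cells of this group had Gfra1 at 158 CPM and Kit at 85.3, against 6.05 and 175 in the 141 control cells.

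In Sertoli-like cells, where Vasa-Cre is not known to be active, Aldh1a2 was higher in the Brca1 vKO library. It was at 1.66 CPM (1.33 to 2.05) in control and 18.3 (17.5 to 19.2) in Brca1 vKO, from 88 and 1824 UMIs, a ratio of 11.003 (8.88 to 13.8). A UMI was seen in 65 of 2004 control cells (3.24%) and in 978 of 4092 Brca1 vKO cells (23.9%), or in 0.151% and 3.21% of cells thinned to 2000 UMIs. Germ markers stood in Sertoli-like cells at 0.572% and 0.229% of their germ-like level, and in control that share of the germ-like Aldh1a2 level is 0.109 CPM, so the Sertoli-like value was 15.2 times it. In Brca1 vKO the stromal markers stood at 0.593%, and the Sertoli-like value was 274 times that share of the stromal-like level. The ratio lay between 9.26 and 22.2 in all 8 alternatives.

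The difference was seen at each number of UMIs per cell and in each Sertoli-like cluster, while 76.1% of Brca1 vKO Sertoli-like cells had no Aldh1a2 UMI. Cells with 1 UMI of Aldh1a2 were 2.59% (1.94 to 3.39) of control and 13.1% (12.1 to 14.1) of Brca1 vKO Sertoli-like cells, those with 2 were 0.349% and 6.06%, those with 3 to 5 were 0.2495% and 4.08%, and those with 6 or more were 0.0499% and 0.684%. The main Sertoli-like cluster had a ratio of 14.5 (10.7 to 20.02) and the dividing one 7.66 (5.65 to 10.6). At a finer resolution all 4 Sertoli-like clusters were higher in Brca1 vKO, with ratios from 5.96 to 17.1, control levels from 1.13 to 2.44 and Brca1 vKO levels from 14.2 to 19.3. Brca1 vKO Sertoli-like cells with and without an Aldh1a2 UMI had summed germ markers at 5.07 and 5.98 CPM, stromal markers at 70.5 and 68.6 and Sertoli markers at 9985 and 10205. An unnamed cluster of few UMIs per cell whose markers were those of Sertoli cells had no Aldh1a2 UMI in 171 control cells, which allows up to 4.12 CPM, and 9 in 213 Brca1 vKO cells, or 12.3 CPM (5.64 to 23.4).

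**Figure D4:**
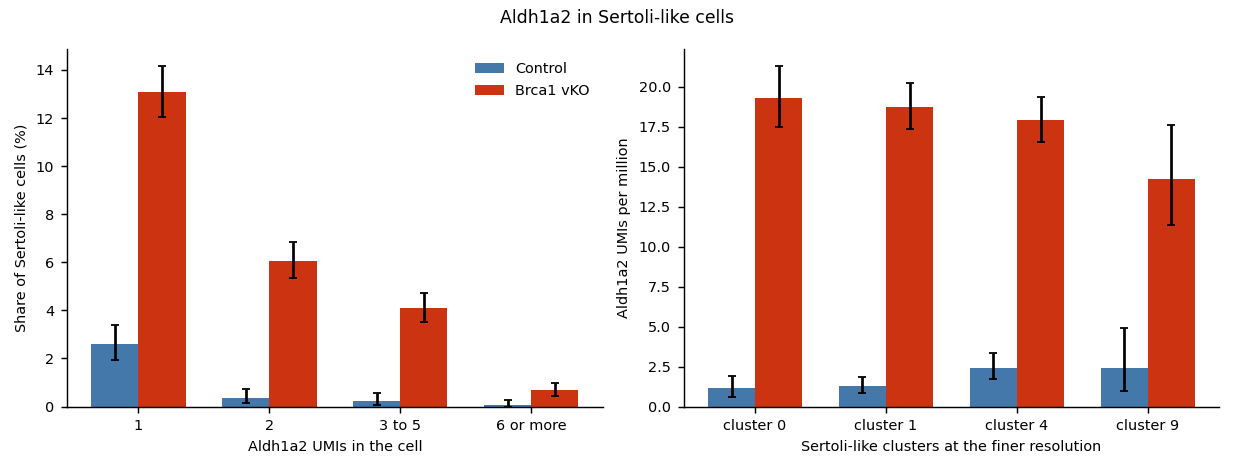
Left, share of Sertoli-like cells (%) with 1, 2, 3 to 5 and 6 or more Aldh1a2 UMIs in each library, with exact 95% binomial intervals. Right, Aldh1a2 level in CPM in the 4 Sertoli-like clusters at the finer resolution, with exact 95% Poisson intervals, from 1.13 to 2.44 in control and from 14.2 to 19.3 in Brca1 vKO.

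Among 15361 genes tested in Sertoli-like cells, whose median ratio was 1.0005, Aldh1a2 had the 14th highest ratio. Of the 13 genes above it, 11 were Cstdc4, Cstdc5, Lcn2, Ngp, Retnlg, S100a8, S100a9, Stfa1, Stfa2, Stfa2l1 and Stfa3, of which 4 stand in the neutrophil marker list of 6 genes. That list summed to 4.54 CPM in control and 28.1 in Brca1 vKO Sertoli-like cells, with 3 and 0 of its genes at 0. A small cluster led by neutrophil and macrophage genes, 36 control and 129 Brca1 vKO cells, had neutrophil markers at 1648 and 49171 CPM and macrophage markers at 9232 and 5780. The remaining ones were Gchfr, which encodes a regulator of GTP cyclohydrolase, and Rbfox1, which encodes a splicing factor. Both were named after their values were seen. Gchfr was at 0.0756 and 36.4 CPM in Sertoli-like cells, from 4 and 3623 UMIs, and at 0.0575 and 6.60 in stromal-like cells. Rbfox1 was at 64.3 and 1316 in Sertoli-like cells, a ratio of 20.5 (19.8 to 21.2), and was also higher in germ-like, stromal-like and myoid-like cells, with ratios of 3.12, 1.91 and 2.46. The 4 genes within 500 kb of Aldh1a2 with enough UMIs, Adam10, Polr2m, Myzap and Cgnl1, had ratios from 0.698 to 1.01. With 1 library per genotype, the genotype, the individual mice and the preparation of the cells cannot be told apart.

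The other genes past 2-fold in Sertoli-like cells were Crabp1 and Stra8, both at the level of free germ-cell RNA. Crabp1 was at 1.81 CPM in control and 0.0502 in Brca1 vKO, which is 1.83 and 0.615 times the level that germ markers would bring, and Stra8 was at 1.002 and 0.0803, or 1.02 and 0.773 times it. Crabp1 in stromal-like cells, at 2.36 and 0.765 CPM, was 1.32 and 1.64 times that level. Germ markers as a whole stood in Sertoli-like cells at 15.9 CPM in control and 5.66 in Brca1 vKO, and no difference in somatic cells is read from these 3 values.

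The remaining genes with at least 50 UMIs were within 2-fold in the 4 somatic classes, Sertoli-like, stromal-like, myoid-like and Leydig-like. Aldh1a1 had ratios of 0.992 (0.982 to 1.003) in Sertoli-like, 1.09 (1.06 to 1.13) in stromal-like, 1.40 (1.29 to 1.53) in myoid-like and 0.926 (0.873 to 0.984) in Leydig-like cells. The stromal-like ratio was 0.995 (0.948 to 1.04) in the larger cluster and 1.23 (1.17 to 1.29) in the one rich in marked doublets. The myoid-like Aldh1a1 levels were 0.896 and 1.08 times the stromal share there, and no difference is read from them. As for Cyp26b1, that share cannot be read as free RNA alone. Cyp26b1 was higher in Brca1 vKO in all 4 classes, with ratios of 1.75 (1.61 to 1.90) in myoid-like, 1.74 (1.57 to 1.93) in Sertoli-like, 1.40 (1.27 to 1.55) in Leydig-like and 1.10 (1.07 to 1.14) in stromal-like cells. The alternatives gave 1.58 to 1.83 in myoid-like, 1.26 to 1.74 in Sertoli-like and 1.02 to 1.40 in Leydig-like cells. Rara was at 1.18 (1.15 to 1.22) in Sertoli-like and 0.860 (0.740 to 1.0007) in myoid-like cells, and Dhrs3 at 0.801 (0.694 to 0.925) in stromal-like cells.

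One unnamed cluster of 437 control and 62 Brca1 vKO cells had few UMIs per cell (medians of 3686 and 3502.5), germ markers at 73.9% of their germ-like level in control, and haemoglobin genes among its leading genes. In it Crabp1 was at 272 CPM (253 to 292) in control and 73.8 (49.8 to 105) in Brca1 vKO, and Stra8 at 160 (146 to 175) and 66.4 (43.8 to 96.6). The order of the libraries there was that of the germ-like cells.

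The other genes of the pathway were taken from 6 lists of 49 genes in all. In germ-like cells 6 of the 31 with enough UMIs were past 2-fold, in GFRA1/RET cells 7 of 27, in Sertoli-like cells 1 of 32, in stromal-like cells 1 of 28, in myoid-like cells 2 of 24 and in Leydig-like cells 1 of 18. The median log2 ratio of these genes was 0.04 in germ-like, 0.14 in GFRA1/RET and 0.09 in Sertoli-like cells. The share past 2-fold over all genes is given above for each class.

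Of 8 genes of retinol uptake, binding and storage, 5 were measured in germ-like cells and none was past 2-fold. Stra6, the membrane receptor for retinol-binding protein, was highest in Sertoli-like cells, at 39.8 CPM in control and 33.9 in Brca1 vKO. In GFRA1/RET cells it was at 1.61 and 3.43, a ratio of 2.13 (1.22 to 3.71). Sertoli markers stood in GFRA1/RET cells at 3.75% and 5.74% of their own level, which would bring 1.49 and 1.95 CPM of Stra6, and 5.99% and 12.8% of these cells were marked as doublets. The values were 1.08 and 1.76 times that background, and no difference is read from them. Of 16 oxidoreductases, 5 to 9 were measured in each group and none was past 2-fold in germ-like, Sertoli-like, myoid-like or Leydig-like cells. Adh1, an alcohol dehydrogenase that can oxidize retinol, was a Leydig gene at 289 and 351 CPM, 61.4 and 50.8 times the next class, and the 2.22-fold ratio in stromal-like cells (1.22 to 4.31) rests on 14 and 56 UMIs. The stromal-like values of 0.806 and 1.78 CPM lay below the 5.59 and 5.68 that Leydig markers would bring and are not read as expression.

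Aldh1a3, the third retinal dehydrogenase, went the other way from Aldh1a2 in germ cells. It was at 6.03 and 18.3 CPM in germ-like cells, a ratio of 3.04 (2.45 to 3.77), and at 8.51 and 18.4 in GFRA1/RET cells, a ratio of 2.16 (1.71 to 2.73). Cyp26a1, the relative of Cyp26b1, was also higher in Brca1 vKO. It was at 1.74 and 6.72 in germ-like cells, a ratio of 3.86 (2.64 to 5.67) from 56 and 59 UMIs, and at 1.89 and 7.11 in GFRA1/RET cells. Germ-like cells were its highest class in both libraries, where for Cyp26b1 they were at background. The RefSeq promoter window of Cyp26a1 held a direct repeat of half-sites spaced by 5 bases, as 0.0883% of all windows did.

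Of 10 receptors and coregulators, 10 were measured in germ-like cells and only Rarb, the third retinoic acid receptor, was past 2-fold, at 1.77 and 0.570 CPM from 57 and 5 UMIs. In GFRA1/RET cells only Nrip1, a corepressor, was, at 10.95 and 24.2, a ratio of 2.21 (1.80 to 2.70). Nrip1 was highest in Sertoli-like cells, and the Sertoli markers in GFRA1/RET cells would bring 7.93 and 12.8 CPM of it, so these values were 1.38 and 1.88 times that background. Rarb was higher in Brca1 vKO in myoid-like cells, at 1.17 and 2.96 from 9 and 44 UMIs, or 1.63 and 4.66 times the stromal share of it. Its promoter window also held half-sites spaced by 5 bases. Ncor1 and Ncoa2, a corepressor and a coactivator of nuclear receptors, were highest in Sertoli-like cells, at 312 and 315 CPM for Ncor1 and at 380.4 and 407 for Ncoa2.

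Of the genes known to respond to retinoic acid, 8 were measured in germ-like cells and 3 were past 2-fold, in both directions. Sohlh1, a transcription factor of differentiating spermatogonia, was lower in Brca1 vKO, at 185 and 59.0 CPM in germ-like cells and at 137 and 55.4 in GFRA1/RET cells, a ratio of 0.404 (0.365 to 0.447). Gm4969, the symbol under which the table lists Meiosin, the partner of STRA8, was lower, at 6.12 and 2.17 in germ-like cells, a ratio of 0.354 (0.209 to 0.567). Ccnd2, a cyclin of the G1 phase, was higher, at 190.1 and 581 in germ-like cells and at 256 and 597 in GFRA1/RET cells, a ratio of 2.33 (2.24 to 2.43). Rec8, a meiotic cohesin subunit, was at 13.4 and 10.3 in germ-like cells and not past 2-fold. In the somatic classes Rarres2 in Leydig-like cells, at 39.7 and 88.0, and Rarres1 in myoid-like cells, at 2.87 and 5.85, were past 2-fold, and so was Sohlh1 in Sertoli-like cells, at 1.32 and 0.130. Markers of another class would bring like or higher levels. For Rarres2 that level was 32.8 and 62.4 CPM from stromal-like cells, whose markers were at 12.5% and 24.7% of their own level in Leydig-like cells. For Rarres1 it was 8.72 and 11.05 CPM from stromal-like cells, and for Sohlh1 it was 1.06 and 0.135 CPM from germ-like cells. No difference in somatic cells is read from these 3 values.

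The genes whose pattern was most like each of the 9 were found by Pearson's r of log2 CPM over 14 sums, those of 7 groups in each of the 2 libraries, among 18746 genes. The groups were the 3 germ-cell subsets and the 4 somatic classes, and since the sums share libraries r is a description only. For Stra8 they were Slc14a2 (0.990), Ubac1 (0.988) and Figla (0.985), and for Crabp1 they were 1700013H16Rik (0.991), Polr2f (0.990) and Sohlh1 (0.989). For Aldh1a1 they were Tmem35a (0.989), Gm42047 (0.988) and Hfe (0.983), and for Cyp26b1 Pgrmc1 (0.984), C1s1 (0.978) and Ifrd1 (0.978). Rdh10 was most like Gm14399 (0.993), Dhrs3 like Cope (0.961), Rara like Evl (0.974) and Rarg like Snhg3 (0.957). Aldh1a2 had the least similar neighbour of the 9, Plekha6 at 0.825.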

How the data were processed

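Testis cells of a control and a Brca1 vKO mouse at PD7 were measured by droplet 3′ single-cell RNA-seq, 1 library per genotype. The authors made the deposited tables of UMI counts per gene and barcode with Cell Ranger 6.0.2 on mm10, per the submitters' processing notes. The counts were not normalized and hold the barcodes called as cells, before the filters on genes and mitochondrial UMIs. The Brca1 vKO library had more cells and a lower median depth (12970.5 against 16917 UMIs per kept cell), which limits shares of cells with a UMI, so these are also given with each cell thinned to 2000 UMIs.

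Barcodes below 750 genes or above 10% mitochondrial UMIs were dropped, and the others were clustered in Python 3.11.15 with scanpy 1.11.5 (2000 variable genes without the 9 genes and the pathway lists, 20 principal components, a Harmony-type correction for the library, 20 neighbours and Leiden clustering with leidenalg 0.10.2 at resolution 0.25). Clusters were named from 81 markers in 11 lists. Doublets were marked by Scrublet, 2.95% and 3.03% of cells, and left in, and an alternative removed them. Germ-like cells of at least 10000 UMIs were called GFRA1/RET or KIT with at least 3 UMIs of Gfra1 and Ret together, or of Kit, and over 2 times those of the other.

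UMIs were summed per library and class and divided by the class total. Intervals are exact (Poisson for levels, Clopper-Pearson for shares, conditional binomial for ratios, scipy 1.17.1) and cover counting error only. Cells are not replicates, so no test was run. As a check of the code, Poisson counts were simulated with some genes raised or lowered 4-fold and with no spread between mice. For Sertoli-like cells (15387 genes) 99% of changed genes were found past 2-fold and 95.4% of intervals held the true ratio. For germ-like cells (14918 genes) it was 99.5% and 95.6%. The intervals are built for such counts, so this does not check the 2-fold calls between the libraries. A gene was restricted when its highest class was at least 4 times the next. Gene coordinates come from a GENCODE annotation of GRCm38 and may differ from the release the authors counted on. The named genes were the 9 members in every class, the pathway genes past 2-fold or highest in their list, and the 3 genes most like each member. The values of 1 pathway gene that this rule names are not reported here. The members, lists and rules were chosen with earlier results of these data known. Alternatives were 5% mitochondrial UMIs, no library correction, resolution 0.5, marked doublets removed, classes by marker UMIs alone, cells counted equally, thinned cells, median-ratio scaling, other minimums of UMIs and other splits of germ cells. Leaving out the barcodes found in both libraries and a split by all germ-cell sub-clusters were added after the data were seen. The background that another class would bring into a class is that class's level times the share of its own level at which its pooled markers stood there, taken from the class that gave the highest value.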

Additional observations from a re-analysis of the deposited data

How the results depend on the processing

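No paired analysis was possible because each genotype had 1 library. Counts of genes past 2-fold depended on how many UMIs were asked for. With cells thinned to 2000 UMIs they were 2 of 3 genes left in germ-like, 1 of 2 in GFRA1/RET, 1 of 5 in Sertoli-like and 0 of 7 in stromal-like cells. At a minimum of 200 UMIs they were 1 of 6 in Sertoli-like and 0 of 7 in stromal-like cells, and with no minimum 2 of 9 in stromal-like, 2 of 9 in myoid-like and 1 of 8 in Leydig-like cells. The stromal-like count was also 0 at resolution 0.5 and 0 with classes by marker UMIs. The share over all genes at these settings is not given here, so the counts are not set against it. Leaving out the barcodes found in both libraries moved none of the 5 counts it was run on by over 1.5 times.

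The split of germ-like cells depended on its rule. KIT cells were 21.0% of the control ones with at least 5 UMIs, 7.78% when thinned to 10000 UMIs and 21.7% by sub-clusters, and GFRA1/RET cells 50.5%, 34.4% and 15.2%. In Brca1 vKO cells counted as KIT were 5.56% by sub-clusters, and GFRA1/RET cells 69.3% when thinned and 26.9% by sub-clusters. The sub-cluster values count only the 1 sub-cluster with the most Kit and the 1 with the most Gfra1, and leave out a larger one of like Gfra1 and Ret. A rule added after the data were seen called all sub-clusters by Gfra1 and Ret against Kit. By it, cells of GFRA1/RET sub-clusters were 74.5% in control and 93.98% in Brca1 vKO, and those of KIT sub-clusters 25.5% and 6.02%. In Brca1 vKO the cells of these KIT sub-clusters did not themselves have more Kit than Gfra1. In the larger one, 12 cells had Gfra1 at 158 CPM and Kit at 85.3, and in the other 1 marked doublet had no Kit UMI. Neither the 5.56% nor the 6.02% is therefore read as a share of KIT cells in Brca1 vKO. Among single genes, the ratio of Rarg in GFRA1/RET cells turned from 0.472 to 1.12 in cells thinned to 2000 UMIs. Aldh1a1 was highest in Sertoli-like cells at resolution 0.5 (945 CPM in control, 938 in Brca1 vKO), and in Brca1 vKO with at most 5% mitochondrial UMIs. At resolution 0.5 the Leydig-like class held 213 control and 537 Brca1 vKO cells, with Aldh1a1 at 718 and 698 CPM. In the main clustering it held 47 and 124 cells, with Aldh1a1 at 1380 and 1279 CPM. The cause of these changes was not tested. In Brca1 vKO Rdh10 was highest in stromal-like cells without the library correction and when thinned, Aldh1a2 with classes by marker UMIs, and Rarg was highest in Leydig-like cells when thinned. The number of cells limits the germ-cell subsets of Brca1 vKO, where 2 KIT cells and 7 cells low in both give wide intervals.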
